A study of Bos taurus with 8 samples.

Results

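CXCL9, CXCL10 and CXCL11 are small secreted chemokines that bind 1 shared receptor, CXCR3. They were chosen by name, as 3 of the 21861 genes in the scRNA-seq count tables, and they were followed by LPS time and by cell class. The choice used measured values, since CXCL10 was picked as one of the larger rises after 8 h of LPS, so its 8 h value against no LPS is given as a description only. CXCL10 (ENSBTAG00000001725) was counted 12157 times in 2046 of 30756 cell barcodes, CXCL9 (ENSBTAG00000050852) 65 times in 21 barcodes, and CXCL11 (ENSBTAG00000005603) in none.

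Blood of 4 2-year-old Holstein female cattle in lactation was pooled and then divided into 4 parts. The no LPS part received none of the bacterial lipopolysaccharide, and the others received 2 µg/ml of it for 2 h, 4 h or 8 h before peripheral blood mononuclear cells were isolated. From each, 1 library was made for scRNA-seq and 1 for scATAC-seq. With 1 library for each treatment, made from 1 pool of animals, no difference between treatments could be tested against biological replicates, and every interval below is a 95% interval for counting error alone. The time that the no LPS part was kept is not given in the sources used here, so LPS and time in culture cannot be told apart.

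As background, CXCR3 is carried mainly by activated T cells and NK cells, and its 3 ligands draw such cells towards sites of infection. All 3 genes are textbook targets of interferon. CXCL9 depends mostly on interferon-γ, while CXCL10 and CXCL11 also respond to type I interferon and CXCL10 to NF-κB. Monocytes, macrophages, dendritic cells and stromal cells are the sources usually named, and B cells are named less often. In the RefSeq annotation of the cattle assembly ARS-UCD2.0 the genes lie side by side on chromosome 6, between SDAD1 and NUP54, and CXCL10 and CXCL11 fall inside the interval of another gene, ART3. The count tables were made on the earlier assembly ARS-UCD1.2, so coordinates are not given. How reads in the overlap were assigned is not given in the sources used here, and its part in the CXCL11 count was not tested.

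The deposited libraries held 3860 to 10429 barcodes and 30902952 to 63770426 UMIs (unique molecular identifiers, each standing for 1 captured RNA molecule). Barcodes were taken as cells when they had 200 to 3000 genes, 200 UMIs or more and less than 20% of UMIs from mitochondrial genes. This kept 7821 cells of the no LPS library, 9865 of the 2 h, 7387 of the 4 h and 3411 of the 8 h library. The 8 h library had the fewest cells and the largest share of cells under 1500 UMIs, 19.8% against 6.63% to 10.5% in the others. Any pair of libraries had 6 to 21 barcodes in common. Cells were placed in classes by raw counts of CD14 (monocytes), CD3E (T cells), MS4A1 (B cells) and NCR1 (NK cells), and cells with more than 1 of these markers, or with none, were kept apart. In the MS4A1 class the 6 B cell markers not used for the gate summed to between 1095 and 1452 UMIs per 1000000 UMIs (CPM), against 16.9 to 41.7 for 7 monocyte markers. In the CD14 class the same monocyte markers summed to 1409 to 2913 CPM and the B cell markers to 11.8 to 47.1 CPM. By library (no LPS, 2 h, 4 h and 8 h) the monocyte sums in this class were 2913, 1628, 1409 and 1991 CPM. Neutrophil markers in it summed to 13.1, 54.6, 170.9 and 33.0 CPM, and a change in the make-up of the class was not tested. That class also held CCL5, a chemokine placed on the NK list, at 1523 to 3125 CPM. The CD3E class had T cell markers at 758 to 824 CPM and the NCR1 class had NK markers at 9431 to 12198 CPM. Most of the latter sum was CCL5, at 8316 to 11275 CPM, and T cell markers in the NCR1 class summed to 418 to 482 CPM.

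CXCL10 RNA was highest at 4 h of LPS. Over all kept cells it stood at 15.2 CPM without LPS (interval 14.0 to 16.4, 584 UMIs), 45.5 CPM at 2 h (2177 UMIs), 150.7 CPM at 4 h (146.9 to 154.5, 6052 UMIs) and 61.2 CPM at 8 h (1020 UMIs). Every library with LPS was above the library without, and the 8 h level lay between those at 2 h and 4 h. The fold against no LPS was 3.0 (2.74 to 3.29) at 2 h and 9.94 (9.13 to 10.8) at 4 h, and it was 4.04 (3.64 to 4.48) at 8 h. From 2 h to 4 h the level rose 3.31-fold, a rise called for 0.555% of genes by the rule given next, and from 4 h to 8 h it went to 0.406 of its 4 h value.

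A rise or fall was called at a 2-fold difference on the log2(CPM + 1) scale, for genes that had 20 UMIs or more in the 2 libraries together. Of the 3 chemokines only CXCL10 had enough UMIs to enter this count. It was called a rise at 2 h, where 0.938% of genes were, at 4 h, where 1.28% were, and at 8 h, where 0.492% were. By size it was rise number 44 of 12150 genes at 2 h, 8 of 12060 at 4 h and 4 of 11778 at 8 h, and the last of these places is what the choice of the gene rested on. The fall from 4 h to 8 h was also called, as for 0.557% of genes.

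Most CXCL10 RNA lay in B cells. In the MS4A1 class its level was 58.8 CPM without LPS (53.7 to 64.3, 1764 cells), 135.5 CPM at 2 h (129.2 to 142.1, 2436 cells), 427.8 CPM at 4 h (416.0 to 439.8, 1926 cells) and 145.5 CPM at 8 h (134.2 to 157.5, 729 cells). The 2 h and 8 h intervals overlapped, while the library without LPS was below and the 4 h library above both. The folds against no LPS were 2.30 (2.08 to 2.55), 7.27 (6.62 to 8.00) and 2.47 (2.19 to 2.79). These were called rises, as were 2.59%, 2.74% and 2.05% of the genes tested in the class, and at 4 h CXCL10 was number 14 of 9860 genes by size. The level at 4 h was 3.16 times that at 2 h (0.973% of genes called) and the level at 8 h was 0.340 of that at 4 h (1.13% called).

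**Figure D1:**
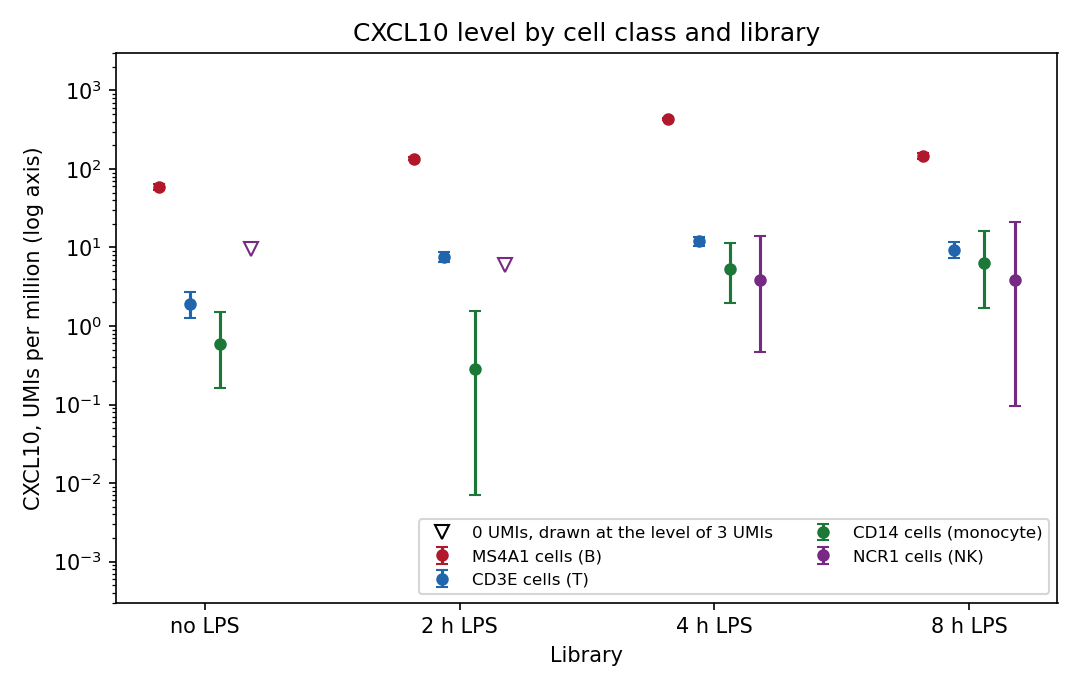
CXCL10 level in CPM (log axis) in 4 gated cell classes of each library, with exact Poisson 95% intervals for counting error as bars and open triangles, drawn at the level of 3 UMIs, where none was counted. The MS4A1 points, from 58.8 to 427.8 CPM, lie above those of the other gated classes in each library.

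The other gated classes held little CXCL10 in every library. The CD14 class had 4 UMIs in 707 cells without LPS, 1 in 308 cells at 2 h, 6 in 117 cells at 4 h and 4 in 66 cells at 8 h, which is 0.594, 0.280, 5.29 and 6.29 CPM. The MS4A1 level was 99.0, 484, 80.9 and 23.2 times the CD14 level in the same library. Against no LPS the CD14 fold was 0.472 (0.00958 to 4.77) at 2 h, 8.90 (2.11 to 42.9) at 4 h and 10.6 (1.97 to 56.8) at 8 h, so the 2 h value could not be told from no change at this depth. The 6 UMIs at 4 h lay in 2 cells, and cells gated on CSF1R, the receptor of a growth factor for monocytes, gave a 4 h fold of 4.14 (0.375 to 28.9), whose interval includes 1. The 8 h value also rested on the gate, since 38 cells with at least 5 CD14 UMIs had no CXCL10 UMI at 8 h, and neither had 36 cells gated on CSF1R. The NCR1 class had no CXCL10 UMI in 63 cells without LPS and in 99 cells at 2 h, which allows up to 4.76% and 3.03% of cells with a UMI, a limit on detection and not on expression, and 2 and 1 UMIs at 4 h and 8 h.

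In the CD3E class CXCL10 was at 1.88 CPM without LPS (30 UMIs), 7.60 at 2 h (168 UMIs), 11.9 at 4 h (237 UMIs) and 9.34 at 8 h (81 UMIs), and 0.606%, 1.58%, 3.49% and 2.68% of these cells had a UMI. The rises were called in all 3 LPS libraries, as were 0.623%, 1.04% and 0.846% of genes in the class. Free RNA in droplets can give UMIs to cells that do not express a gene, and the B cell markers counted in T cells were taken as its measure. CXCL10 in the CD3E class stood at 3.20%, 5.61%, 2.79% and 6.42% of its MS4A1 level, while the 6 B cell markers besides MS4A1 stood at 0.938% to 5.99%, 0.846% to 5.14%, 0.444% to 5.14% and 1.81% to 10.9% of theirs. The medians of the 6 were 1.45%, 0.989%, 1.30% and 3.76%. The top of each span was CD79A alone, and the other 5 markers reached at most 1.57%, 1.96%, 1.85% and 5.35%. By these values CXCL10 in the CD3E class was above 5 of 6 B cell markers in 3 libraries and above all 6 at 2 h. At 2 h 1 cell held 41 of the 168 UMIs, and the place above all 6 was not recomputed without that cell. How much of the CXCL10 in this class was free RNA was not tested. In the CD14 class CXCL10 stood at 0.207% to 4.32% of its MS4A1 level, inside the span of the same markers in each library.

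Of the CXCL10 UMIs of each library, 82.2% without LPS (78.8% to 85.2%, exact Clopper-Pearson interval), 78.4% after 2 h (76.6% to 80.1%), 82.7% after 4 h (81.7% to 83.6%) and 59.8% after 8 h (56.7% to 62.8%) were in the MS4A1 class. The 8 h share was the smallest counted. These intervals treat each UMI as independent, while many UMIs lay in few cells, so they understate the error of the shares. Counting every cell with an MS4A1 UMI, whatever else it held, the share was 89.7%, 88.5%, 87.9% and 84.4%, and such cells were 27.0% to 29.8% of the kept cells. Cells with more than 1 gate marker, among which doublets would fall, accounted for 44, 220, 314 and 251 UMIs. Their levels were 11.9, 51.5, 109.8 and 189.4 CPM, so at 8 h they were above the MS4A1 class. At 8 h 1 cell with several markers had 144 CXCL10 UMIs, 14.1% of the library's total. Without the upper limit of 3000 genes the 8 h level of these cells was 45.2 CPM. Cells with no gate marker had 26, 81, 488 and 73 UMIs, which is 7.09, 16.7, 119.2 and 46.7 CPM. In bulk sums over a class, fewer cells with the RNA and less RNA in each cell cannot be told apart, so the counts per cell follow.

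Within the MS4A1 class CXCL10 was held by a minority of cells, and both their share and their content were highest at 4 h. A CXCL10 UMI was found in 7.82% of the cells without LPS (6.61% to 9.18%), 14.7% after 2 h (13.3% to 16.2%), 28.5% after 4 h (26.4% to 30.5%) and 14.4% after 8 h (11.9% to 17.2%). After thinning each cell to 2000 UMIs, which left out 153, 119, 60 and 150 shallower cells, the shares were 5.52%, 9.88%, 19.4% and 9.50%, in the same order. Cells with the RNA had a mean of 3.48, 4.77, 9.13 and 5.81 UMIs and a median of 1, 2, 3 and 2. The largest count in a cell was 44, 53, 161 and 45. Cells with at least 20 CXCL10 UMIs numbered 4, 14, 63 and 8, and they held 32.7%, 27.1%, 58.2% and 43.8% of the CXCL10 UMIs of the class. Over all kept cells of a library, 50% of the CXCL10 UMIs were in 19, 58, 59 and 15 cells.

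**Figure D2:**
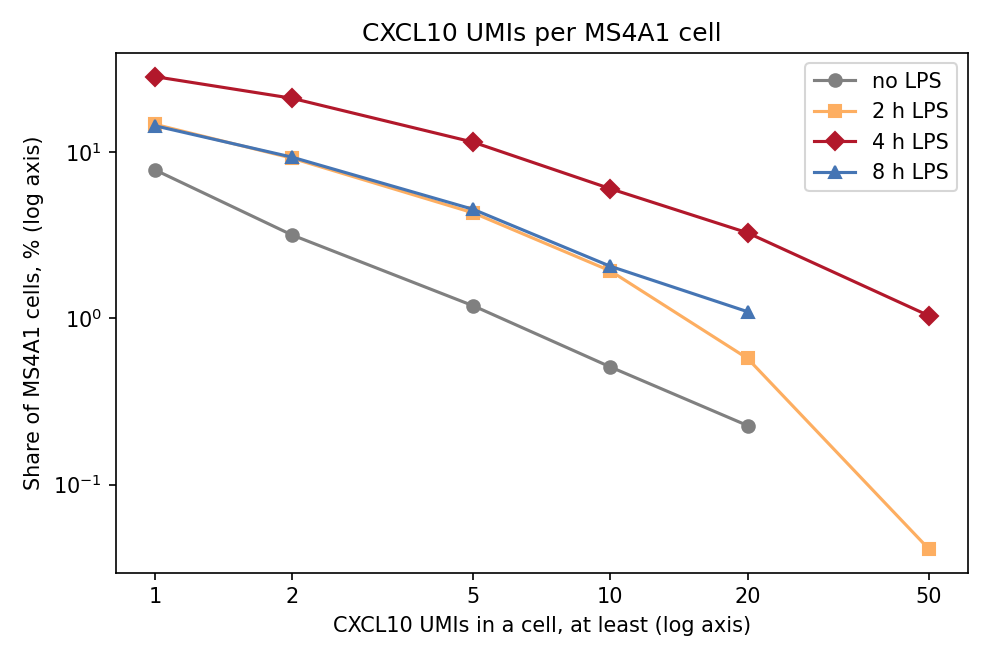
Share of MS4A1 cells (log axis) that held at least 1, 2, 5, 10, 20 or 50 CXCL10 UMIs (log axis), for each library. The 4 h line is above the others throughout, from 28.5% of cells at 1 UMI to 1.04% at 50, and the no LPS line is the lowest; no cell reached 50 UMIs without LPS or at 8 h.

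CXCL9 was found in very few cells. With the limits above it had 4 UMIs in 2 cells without LPS, 15 in 3 cells at 2 h, 14 in 7 cells at 4 h and 2 in 2 cells at 8 h. The folds against no LPS were 3.02 (0.961 to 12.5), 3.36 (1.05 to 14.0) and 1.16 (0.105 to 8.06), and these UMIs come from so few cells that the intervals understate the error. Without the upper limit of 3000 genes there were 10, 16, 24 and 15 UMIs, and the folds became 1.46, 2.47 and 2.82. Over all barcodes the gene was in 21 cells, of which 17 also had CXCL10 and 19 also had MS4A1, and 7 had over 3000 genes. The 9 cells with at least 2 CXCL9 UMIs held 53 of the 65. The richest, at 2 h, had 11 CXCL9, 9 CXCL10 and 6 MS4A1 UMIs. Some held mixed markers. A 4 h cell with 9 CXCL9 UMIs had 24 of CD14, 3 of CD3E and 14 of MS4A1. The richest cell without LPS had 6 CXCL9 UMIs, 5 of CD14 and 3 of CD3E, with none of MS4A1 or CXCL10. Another cell without LPS had 3 CXCL9 UMIs and none of the gate markers. It had 35 UMIs of CCR7, a homing receptor of mature dendritic cells and lymphocytes, and 50 of IDO1, an enzyme that breaks down tryptophan. CXCL11 had 0 UMIs in 30756 barcodes, which allows up to 0.00975% of barcodes with a UMI and a counted level of up to 0.0143 CPM. These limits cover counting error alone and do not bound the share of cells that express the gene.

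On the receptor side 1 fall was called, that of CXCR3 itself in T cells at 8 h. CXCR3 was at 12.4, 8.69, 8.36 and 5.53 CPM in the CD3E class and at 9.81, 6.91, 8.29 and 8.11 CPM in the MS4A1 class (no LPS, 2 h, 4 h and 8 h), and the CD14 class had no CXCR3 UMI in any library. ACKR3, a scavenging receptor for CXCL11, had 14 to 28 UMIs per library over all cells. DPP4, a peptidase that trims CXCL10, was at 8.40 to 9.56 CPM. Of the 4 genes listed, 3 could be tested over all cells, where 0 rose or fell at any time, and 3 in the CD3E class, where CXCR3 at 8 h was 0.447 of its level without LPS (0.319 to 0.616; 0.385% of genes fell in the class).

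Among cytokines that induce or restrain these chemokines, IFNG (interferon-γ) was the 1 called rise of 7 genes tested over all cells at 2 h (0.938% of all genes) and again at 4 h (1.28%), and 0 of 6 rose at 8 h. IFNG was at 0.909 CPM without LPS and at 8.71, 4.03 and 1.02 CPM with LPS for 2 h, 4 h and 8 h, highest 1 time point before CXCL10. In the NCR1 class it had 0, 92, 18 and 3 UMIs, which is 185.2 CPM at 2 h, while the CD3E class was at 5.61 CPM and the MS4A1 class at 0.556 CPM. TNF stood at 30.6, 51.4, 26.7 and 29.0 CPM over all cells and was not called. IL10, a cytokine that restrains inflammation, had the most UMIs of the list, at 44.6, 80.3, 31.2 and 28.3 CPM, and was not called either. In the MS4A1 class TNF and IL10 were called at 2 h and at 8 h, 2 of 3 and 2 of 2 genes tested (2.59% and 2.05% of all genes), with TNF at 6.25, 19.2, 9.57 and 19.1 CPM and IL10 at 4.66, 14.4, 4.19 and 14.3 CPM. Both were lower at 4 h than at 2 h and 8 h, unlike CXCL10. In the CD14 class 4 of 6 rose at 2 h (4.2% of genes), namely TNF from 76.3 to 156.1 CPM, IL27 from 48.7 to 186.6 CPM, IL10 from 193.6 to 668.2 CPM and IL12A from 1.04 to 3.64 CPM. These genes were named after their values were seen. Of the interferons other than IFNG, IFNL3 and IFNE had 0 UMIs in the kept cells, and IFNB1 was not analysed here.

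Of 16 genes of interferon signalling in the MS4A1 class 1 rose at 2 h, 3 rose at 4 h and 0 rose at 8 h. At these times 2.59%, 2.74% and 2.05% of all genes tested in the class rose. None of the 16 fell against no LPS. The 3 at 4 h, named after their values were seen, were NFKB1, a subunit of NF-κB, at 150.6, 424.2, 348.2 and 208.9 CPM in the 4 libraries, STAT2 at 31.9, 36.6, 66.5 and 50.6 CPM, and IRF7 at 68.8, 113.6, 272.9 and 85.9 CPM. NFKB1 was the 1 that rose at 2 h, by 2.82-fold beside 2.30-fold for CXCL10, and its highest level was at 2 h, while IRF7, a transcription factor of the type I interferon response, had its highest level at 4 h as CXCL10 had.

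Most type I interferon targets were highest at 4 h in the MS4A1 class, as CXCL10 was. Of 18 genes tested 7 rose at 2 h, 18 of 19 rose at 4 h and 2 of 17 rose at 8 h, and 17 of 19 fell from 4 h to 8 h. Among all genes tested in the class 2.59%, 2.74% and 2.05% rose, and 1.13% fell from 4 h to 8 h. The median log2 change of the list against no LPS was 0.72, 2.79 and 0.45, beside −0.12, −0.09 and 0.01 over all genes tested. CXCL10 had 1.19, 2.84 and 1.29 on this scale. ISG15, a ubiquitin-like protein, went from 193.1 CPM to 2609, 5377 and 519.0 CPM. MX1, an antiviral GTPase, was at 135.1, 381.0, 939.3 and 184.4 CPM and its relative MX2 at 115.0, 124.5, 795.2 and 166.5 CPM. IFIH1, a sensor of viral RNA, was at 50.9, 256.3, 361.4 and 70.4 CPM. At 8 h ISG15 and RSAD2, an antiviral radical enzyme named after its values were seen, were the 2 that were still called.

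Type I targets also rose in classes where CXCL10 was at lower levels. At 4 h 19 of 19 rose in the CD3E class, with a median log2 change of 2.16, where 1.04% of genes rose in all. In the CD14 class 14 of 16 rose, with a median of 2.49, where 5.59% of genes rose in all. MX1 in CD14 cells was at 19.3, 24.9, 130.4 and 12.6 CPM and in CD3E cells at 19.6, 33.8, 264.3 and 47.0 CPM. CXCL10 at 4 h was 7.27 times (6.62 to 8.00) its level without LPS in the MS4A1 class. It was 6.34 times (4.32 to 9.60) in the CD3E class. In the CD14 class it was 8.90 times (2.11 to 42.9), from 4 UMIs without LPS and 6 UMIs in 2 cells at 4 h. The levels without LPS were 58.8, 1.88 and 0.594 CPM. The part of free RNA in the CD3E and CD14 folds was not tested.

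Targets more typical of interferon-γ gave fewer calls at 4 h than the type I list, and their median at 8 h was higher; the difference was not tested. In the MS4A1 class 2 of 9 rose at 2 h, 3 rose and 1 fell at 4 h (4.76% of all genes fell), and 1 rose at 8 h, with medians of −0.65, 0.69 and 0.70 on the log2 scale. The share of all genes that rose was 2.59%, 2.74% and 2.05%. WARS1, a tRNA synthetase, was at 227.3, 224.3, 468.6 and 431.0 CPM. GBP2, a guanylate-binding protein of cell defence, was at 112.9, 71.7, 186.4 and 143.1 CPM. CIITA, which switches on MHC class II genes, was at 39.6, 21.8, 23.0 and 34.1 CPM, and IDO1 at 23.3, 13.8, 38.3 and 43.4 CPM. From 4 h to 8 h WARS1 went to 0.920 of its level (0.872 to 0.970), beside 0.340 for CXCL10, and IDO1 was not lower at 8 h.

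**Figure D3:**
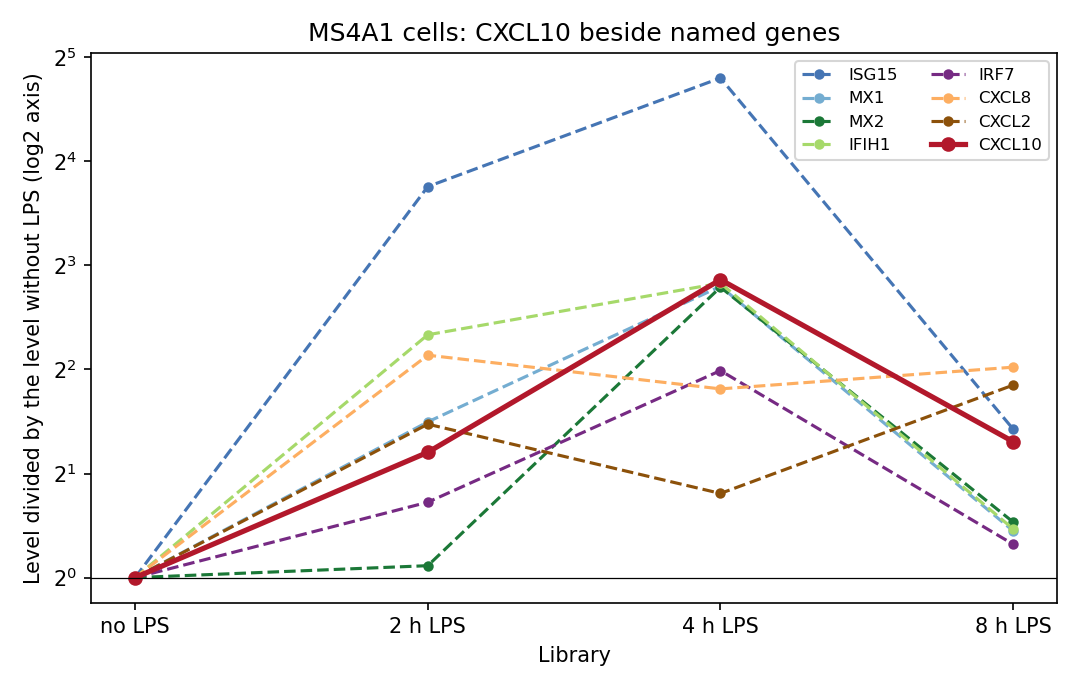
Level of CXCL10 and 7 named genes in MS4A1 cells of each library, divided by the level without LPS (log2 axis), 1 library per point with no replicate error. CXCL10, ISG15, MX1, MX2, IFIH1 and IRF7 are highest at 4 h, while CXCL2 and CXCL8 are higher at 2 h and 8 h than at 4 h.

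CXCL2, CXCL5 and CXCL8, CXC chemokines that attract neutrophils through other receptors, were highest in the CD14 class. CXCL2, CXCL5 and CXCL8 were at 34491, 83176 and 9131 CPM in the CD14 class without LPS and at 57360, 84852 and 24313 CPM at 4 h. In the MS4A1 class CXCL8 stood at 199.9, 879.1, 702.4 and 811.7 CPM and CXCL2 at 319.7, 888.2, 559.9 and 1152 CPM, so that both were lower at 4 h than at 2 h and 8 h. In that class 5 of 6 tested genes of the list rose after 2 h of LPS (2.59% of all genes), 2 after 4 h (2.74%) and 5 after 8 h (2.05%). In the sum of all cells 0 of 8 rose, and 2, 5 and 3 fell, where 2.46%, 4.26% and 2.92% of all genes fell. The number of CD14 cells went from 707 without LPS to 66 at 8 h, and the part of free RNA from them in the MS4A1 values was not tested.

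The B cells that held CXCL10 also held more RNA of type I targets, by 2-fold or more for some of them except at 8 h. MS4A1 cells with and without a CXCL10 UMI were compared within each library after thinning to 2000 UMIs, with 89 against 1522 cells without LPS, 229 against 2088 at 2 h, 362 against 1504 at 4 h and 55 against 524 at 8 h. Cells of 1 library are not replicates, and no test was made. At 4 h 9 of 18 type I targets were at least 2-fold higher in the cells with CXCL10, with a median log2 difference of 0.99, beside 1.18% of all genes and a median of −0.09. At 2 h it was 8 of 17 (2.01% of genes), without LPS 6 of 15 (4.23% of genes) and at 8 h 0 of 11 (4.1% of genes). At least 2-fold lower were 1 target without LPS (13% of genes) and 1 at 8 h, where the list had a median of 0.50. ISG15 at 4 h was at 8901 CPM in the cells with CXCL10 and 3932 CPM in those without, a ratio of 2.26 (2.20 to 2.33), and MX2 was at 1431 and 687.8 CPM. RSAD2 was 19.1 times higher at 2 h (12.3 to 30.4) and 3.42 times higher at 4 h (2.74 to 4.27).

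Of the interferon-γ type targets, 2 of 8 were at least 2-fold higher in the cells with CXCL10 at 4 h, IDO1 with 125.7 against 28.6 CPM and GBP2 with 386.7 against 134.3 CPM. At 2 h it was 0 of 9, without LPS 4 of 8 and at 8 h 2 of 6. The share of all genes was 1.18% at 4 h, 2.01% at 2 h, 4.23% without LPS and 4.1% at 8 h. The 4 without LPS, named after their values were seen, were GBP2, WARS1, IDO1 and GBP4, the last pair with intervals that include 1, and the list had a median log2 difference of 0.93 beside 0.72 for the type I targets. The 2 at 8 h were GBP2, with 254.5 against 124.0 CPM, and IDO1, with 109.1 against 32.4 CPM, and the medians were 0.62 and 0.50. The cells with CXCL10 were otherwise like the rest of the class in B cell markers, of which 0 of 7 differed by 2-fold in any library. The plasma cell genes JCHAIN and MZB1 were lower by that measure in the cells with CXCL10 without LPS, at 2 h and at 4 h (13%, 7.15% and 5.23% of all genes). JCHAIN, which joins secreted antibody into polymers, was at 34.5 against 90.8 CPM at 4 h. Before thinning the median depth of MS4A1 cells was 5771 to 7822 UMIs in those with CXCL10 and 3758 to 4721 in those without.

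**Figure D4:**
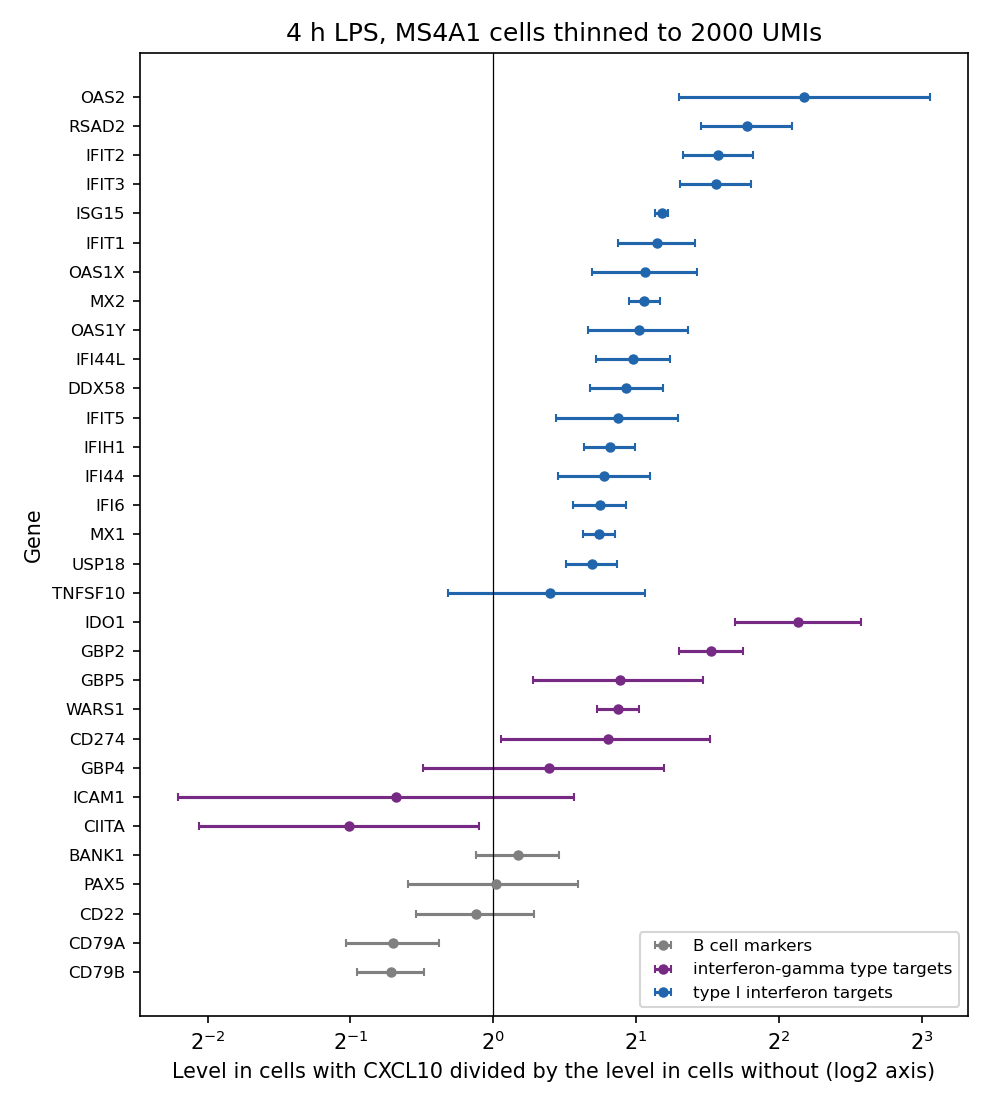
Ratio of levels (log2 axis) between MS4A1 cells with and without a CXCL10 UMI in the 4 h library, thinned to 2000 UMIs per cell, for type I interferon targets, interferon-γ type targets and B cell markers, with exact 95% intervals for counting error. Of the 18 type I targets 17 have intervals above 1, and the B cell markers lie at or below 1.13.

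The genes whose levels over cell classes and LPS times were most like those of CXCL10 were found by correlation, which is a description with no test. Over the 16 sums of 4 classes in 4 libraries, which share libraries and class gates, Pearson's r of log2(CPM + 1) with CXCL10 among 9649 genes was among the highest for BAIAP2L1 (0.945), TNFRSF13C (0.929), the unnamed gene ENSBTAG00000038330 (0.929) and CR2 (0.927). TNFRSF13C, a survival receptor of B cells, was at 502.6, 386.1, 500.8 and 380.2 CPM in the MS4A1 class (no LPS, 2 h, 4 h and 8 h). CR2, a complement receptor, was at 21.9, 84.0, 73.9 and 32.9 CPM there. BAIAP2L1 had 245 UMIs over the 16 sums and was at 2.08, 6.19, 7.18 and 4.05 CPM in that class. The sums differ by class as well as by time, so a high r does not show a like course over time.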

How the data were processed

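For 4 scRNA-seq libraries the deposited tables hold raw counts of UMIs for each gene and cell barcode, made by the authors, per the labels and the study's methods, with Cell Ranger on ARS-UCD1.2, and for 4 scATAC-seq libraries they hold deposited counts for each gene and barcode, whose counting rule is not given in the sources used here. The chemokines and the gene lists were chosen with earlier results of these data known. CXCL9, CXCL10 and CXCL11 were found by name in the scRNA-seq tables, and their accessibility was not analysed here. Cells had 200 to 3000 genes, 200 UMIs or more and less than 20% of UMIs from 13 mitochondrial genes. The CD14 class needed at least 2 CD14 UMIs and none of the other gate markers, and the CD3E, MS4A1 and NCR1 classes at least 1 UMI of their own marker, none of the other lymphoid ones and at most 1 of CD14. No doublet caller was run, and cells with several gate markers stayed out of the classes.

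UMIs of a gene were added up within each class of each library and given per 1000000 UMIs of that sum (CPM). Levels have exact Poisson intervals, ratios exact conditional Poisson intervals and shares exact Clopper-Pearson intervals, all at 95%. With 1 library per treatment no test was made. The intervals do not cover variation between cells or animals. A count of 0 was given an upper limit of 3 counts. Named genes were the members of the lists, of which those with most UMIs are given as examples, and the 5 genes with the highest Pearson correlation with CXCL10 among those with at least 200 UMIs, of which 1 is not reported here. Symbols of GBP6 and GZMB, each on 2 rows, were summed. Ratios and intervals were tested first on simulated Poisson counts, which leave out the uneven spread of UMIs over cells. Alternatives covered the cell limits, gates, the richest cell and scaling by TMM in edgeR 4.0.16 and by DESeq2 1.42.0 size factors, with Python 3.11.15, numpy 2.4.6, scipy 1.17.1 and R 4.3.3.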

Additional observations from a re-analysis of the deposited data

Results flagged for a closer look

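ART3, the gene whose annotated interval holds CXCL10 and CXCL11, had a signal in the scATAC-seq tables, which the comparisons above do not use, that was above the level without LPS at every time. It was chosen after its values were seen. Its counts were 44 of 975012 in the library without LPS, 2525 of 30250143 at 2 h, 2290 of 26837579 at 4 h and 764 of 11957904 at 8 h, which is 45.1, 83.5, 85.3 and 63.9 CPM. The ratio to no LPS was 1.85 (counting interval 1.37 to 2.55) at 2 h, 1.89 (1.40 to 2.61) at 4 h and 1.42 (1.04 to 1.96) at 8 h. A ratio at least as large was found for 10.3%, 8.89% and 12.2% of the genes compared. The flanking genes had ratios of 0.887, 0.995 and 0.972 (SDAD1) and 0.707, 0.797 and 0.836 (NUP54). With barcodes of at least 500 counts only, an alternative chosen after seeing the data, the ART3 ratios were 1.77, 1.81 and 1.36, and those of the flanking genes changed, to 0.618, 0.693 and 0.677 (SDAD1) and 0.970, 1.09 and 1.15 (NUP54), so that NUP54 was on the other side of 1 at 4 h and 8 h. ART3 RNA was counted 1 or 2 times in each scRNA-seq library. The no LPS library had far fewer counts than the others, the part of this in the ratio was not tested, and 1 library per treatment gives no replicate check.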

How the results depend on the processing

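Over 16 fold changes of CXCL10 and CXCL9, 92 alternative values were computed, and 87 of them stayed within the counting interval of the reported value. For CXCL9 and for CD14 cells staying inside says little, since the intervals are wide, such as 1.97 to 56.8 for CD14 cells at 8 h. No alternative with UMIs in both libraries reversed a fold whose interval excluded 1. In CD14 cells at 8 h, where that interval excluded 1, the CSF1R gate had no CXCL10 UMI. Its bound of at most 8.17 is counted among the 87, but it allows a fall as well as a rise. The alternatives for all cells and CD14 cells against no LPS were planned, and those for MS4A1 cells, for 4 h against 2 h and for 8 h against 4 h were chosen after seeing the data. The other 5 were over all cells. Without an upper limit on genes, CXCL10 at 8 h was 3.57 times no LPS and 0.359 of the 4 h level. The 8 h level was also 0.359 of the 4 h level with the richest cell of each library left out, 0.379 with effective library sizes by TMM and 0.379 with median-of-ratios size factors. Over all alternatives CXCL10 at 4 h against no LPS was 9.76 to 10.5 in all cells, 7.22 to 7.75 in MS4A1 cells and 4.14 to 12.1 in CD14 cells, and in MS4A1 cells the 8 h value was 2.40 to 2.64 times no LPS. In CD14 cells at 8 h it was 5.50 without an upper limit on genes, 16.2 with a gate of 1 CD14 UMI and at most 8.17 with the CSF1R gate, and the gate of 5 CD14 UMIs gave no value. CXCL9 at 4 h was 6.71 times no LPS with the richest cell of each library left out. That value rested on 7 UMIs against 1, and its interval of 0.862 to 302 includes 1, unlike that of the reported value. The planned accessibility alternatives of the 3 chemokines were not run, since their accessibility was not analysed here, and CXCL11 gave no fold. No paired analysis was possible because each treatment had 1 library. Depth limits CXCL9 and CXCL11 and the CD14 and NCR1 classes, where 0 to 6 CXCL10 UMIs were counted.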

Other observations

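Cells with over 3000 genes, which the limits above leave out, also held CXCL10. Counting them, the libraries had 766, 2518, 7417 and 1456 CXCL10 UMIs (no LPS, 2 h, 4 h and 8 h) in place of 584, 2177, 6052 and 1020. Cells with more than 1 gate marker then had 201, 488, 1042 and 479 of these UMIs, and the MS4A1 class 504, 1777, 5599 and 815, at 51.7, 119.1, 388.8 and 124.0 CPM. The CD14 class had 5, 1, 6 and 4.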
